A study of Mus musculus with 2 samples.

Results

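The miR-26 family is made in the mouse from 3 hairpin genes, Mir26a-1, Mir26a-2 and Mir26b, each inside an intron of a gene for a small CTD phosphatase. The members were taken by gene symbol, and all 3 were found among the 1973 genes counted. Small RNA had been sequenced from forebrain of mouse embryos at embryonic day 10.5, strain B6NCrl, with males and females pooled. There is 1 group of 2 libraries and no treatment or genotype to compare: replicate 1 came from 69 pooled embryos and replicate 2 from 51. Pooling hides the spread between embryos, and whole forebrain tissue does not show which cells held a miRNA. In bulk tissue, fewer cells of a type and less RNA per cell cannot be told apart.

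A miRNA is cut from a hairpin precursor, which can give a mature strand from its 5′ arm (5p) and one from its 3′ arm (3p). Bases 2 to 8 of the mature strand, the seed, pair with target messages. The host genes Ctdsp1, Ctdsp2 and Ctdspl encode small phosphatases of the tail of RNA polymerase II that are recruited by REST, the repressor that keeps neuronal genes silent outside neurons. In zebrafish, miR-26b has been reported to repress the message of its host ctdsp2 as neurons differentiate.

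The sequences of the family are shown first because they bear on what the counts can hold. Mature sequences and hairpins are from RefSeq (GRCm38.p6, the assembly of mm10), where all 3 members matched. The seed is in capitals, and all lie on the plus strand.
miR-26a-5p, from Mir26a-1 (chr9:119031811-119031832) and Mir26a-2 (chr10:126995543-126995564): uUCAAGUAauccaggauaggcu
miR-26b-5p, from Mir26b (chr1:74394324-74394344): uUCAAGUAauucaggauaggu
miR-26a-1-3p (chr9:119031850-119031871): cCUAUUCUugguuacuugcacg
miR-26a-2-3p (chr10:126995581-126995602): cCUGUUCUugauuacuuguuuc
miR-26b-3p (chr1:74394360-74394381): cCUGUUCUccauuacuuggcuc

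The 5p strands of all 3 hairpins carried the seed UCAAGUA, and among 1679 mature names in the RefSeq table no other mature strand had it. Counted from the 5′ end, miR-26a-5p (22 nt) and miR-26b-5p (21 nt) differed at C11U and C21U, both outside the seed. The 3p strands differed more. From miR-26a-1-3p to miR-26a-2-3p there were 6 substitutions, one of them, A4G, within the seed. The 3p seeds therefore split the family another way: miR-26a-2-3p and miR-26b-3p shared CUGUUCU, which miR-6932-3p and miR-7039-3p also had, while miR-26a-1-3p alone had CUAUUCU.

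The hairpins show how far the loci can be told apart by a read. Capitals mark the longest run held by both miR-26a hairpins, and in Mir26b the 5p strand.
Mir26a-1 (chr9:119031796-119031885): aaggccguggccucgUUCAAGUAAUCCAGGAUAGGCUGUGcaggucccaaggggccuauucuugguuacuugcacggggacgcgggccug
Mir26a-2 (chr10:126995530-126995613): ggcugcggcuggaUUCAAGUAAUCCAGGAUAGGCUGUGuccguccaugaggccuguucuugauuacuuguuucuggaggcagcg
Mir26b (chr1:74394310-74394394): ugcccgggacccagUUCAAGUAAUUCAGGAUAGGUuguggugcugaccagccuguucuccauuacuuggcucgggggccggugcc

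The run common to both miR-26a hairpins was 25 nt long. It began at the first base of miR-26a-5p and ended 3 bases beyond its last base. A read of 25 nt or shorter that starts at the first base of miR-26a-5p and matches the hairpin is thus identical at both loci, while one of 26 nt is not. Of the 22-nt windows of each hairpin, 4 of 69 in Mir26a-1 and 4 of 63 in Mir26a-2 lay in the common run. Mir26b had 0 of 64 such windows in any other hairpin of the table, and its longest run in common with a miR-26a hairpin was 11 nt. Fragments shorter than 30 nt had been selected. Reads that mapped to several places were tallied apart from the genes and were taken as counted for no gene. The counts of Mir26a-1 and Mir26a-2 therefore leave out reads of miR-26a-5p that fit both loci and are lower limits, whereas Mir26b has no such twin in the table.

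**Figure D1:**
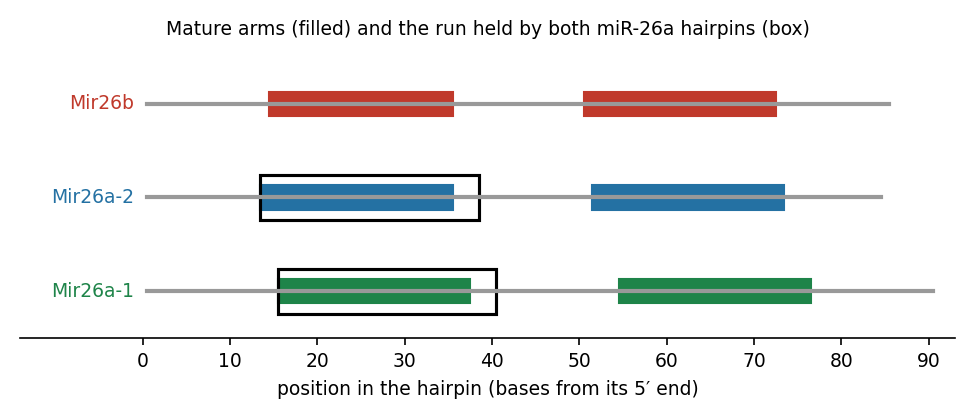
The 3 miR-26 hairpins drawn to scale, with the position in bases from the 5′ end on the horizontal axis, mature 5p and 3p strands as filled bars and the run common to both miR-26a hairpins as an open box. The box covers the whole 5p strand of Mir26a-1 and Mir26a-2 and none of their 3p strands.

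All 3 hairpins lay on the strand of their host and in an intron of its principal transcript (GENCODE M21, mm10). Mir26b (ENSMUSG00000065468.1, 85 nt) was in intron 4 of the principal Ctdsp1 transcript of 7 exons, an intron of 564 bases, 234 bases after the upstream exon and 245 before the next. Mir26a-2 (ENSMUSG00000065430.1, 84 nt) was in intron 5 of the principal Ctdsp2 transcript of 8 exons, 241 bases before the next exon. The first exons of 2 other Ctdsp2 transcript models start at the last base of that hairpin and overlap it by 1 base. Of 4 Ctdsp2 models, only 1, the principal one, spanned the whole hairpin. For the other hairpins, 2 of 3 models of Ctdsp1 and 3 of 4 of Ctdspl did so. Mir26a-1 (ENSMUSG00000065513.1, 90 nt) was in intron 5 of the principal Ctdspl transcript of 8 exons, an intron of 3283 bases, 1543 bases after one exon and 1650 before the next. The host genes themselves differ in span, with 5777 bases for Ctdsp1, 21259 for Ctdsp2 and 117546 for Ctdspl. None of the hosts was among the counted genes, so host and miRNA levels could not be set side by side.

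**Figure D2:**
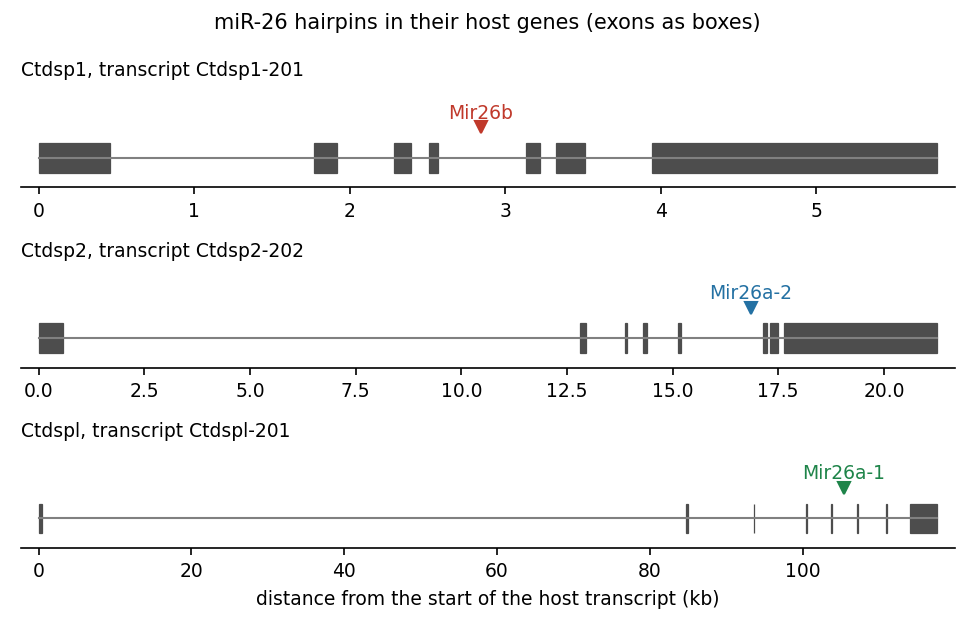
Principal transcripts of the host genes Ctdsp1, Ctdsp2 and Ctdspl with exons as boxes, distance from the start of the transcript in kb on the horizontal axis (a separate scale in each panel) and the hairpin as a triangle. Each hairpin sits in an intron, the 4th in Ctdsp1 and the 5th in Ctdsp2 and Ctdspl.

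Mir26b was among the most abundant counted miRNA genes of the forebrain, and the miR-26a loci were in the lower part of the 401 genes that averaged at least 10 counts. Mir26b had 77400 counts in replicate 1 and 79773 in replicate 2. Scaled to counts per 1000000 gene counts (CPM), this was 23771 and 22317 CPM, or 23044 ± 1028 CPM (SD, n = 2), rank 8 of 1973. Both libraries were high, and the exact 95% intervals, which cover counting error only, were 23606 to 23937 CPM and 22164 to 22471 CPM.

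Mir26a-2 had 109 and 97 counts, which is 33.5 and 27.1 CPM (30.3 ± 4.5, SD, n = 2; rank 268). Mir26a-1 had 26 and 31 counts, which is 7.99 and 8.67 CPM (8.33 ± 0.49, SD, n = 2), where it shared rank 334 with Mir3070a. The 3 genes kept the same order in both libraries and their levels did not overlap. No read was counted on the strand opposite to any of the 3 genes in either library.

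**Figure D3:**
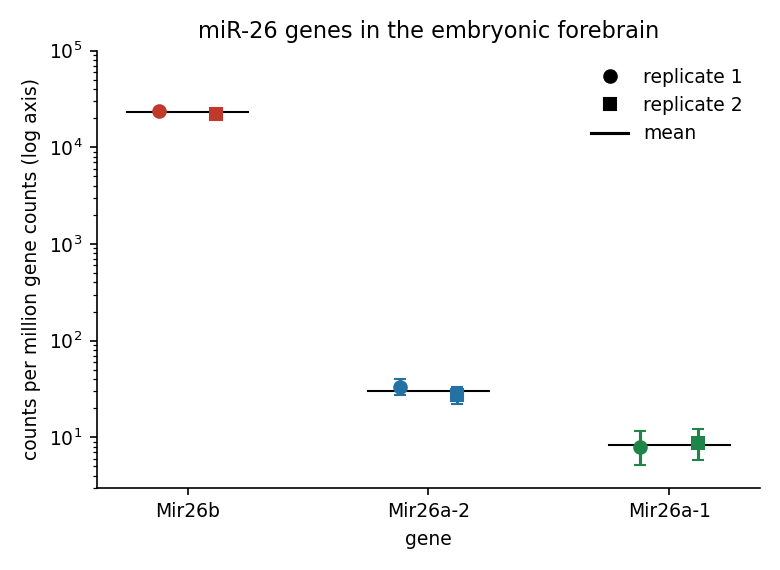
Level of each miR-26 gene in CPM on a log axis, with a circle for replicate 1, a square for replicate 2, exact 95% counting intervals as bars and the mean of the libraries as a line. Mir26b lies near 23044 CPM, Mir26a-2 near 30.3 and Mir26a-1 near 8.33, with no overlap between genes.

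Counts assigned to Mir26b exceeded those of both miR-26a loci together 573-fold in replicate 1 and 623-fold in replicate 2, a log2 ratio of 9.22 ± 0.08 (SD, n = 2). Per base of hairpin, Mir26b had 911 and 939 counts, Mir26a-2 1.30 and 1.15, and Mir26a-1 0.289 and 0.344. The miR-26a loci gave 0.174% of the family's counts in replicate 1 (95% exact interval 0.146 to 0.206) and 0.160% in replicate 2 (0.134 to 0.190). A lower level of miR-26a and reads left out because they fit both loci cannot be told apart in these counts. Reads mapped to several places numbered 2577249 in replicate 1 and 2780180 in replicate 2, which is 33.3 and 34.9 times the count of Mir26b. Which of them were miR-26a-5p was not analysed here, so the order of miR-26a and miR-26b in the tissue is not known from these values.

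The miR-26a loci gave unequal counts in both pools. Mir26a-2 in Ctdsp2 had 4.19 times the counts of Mir26a-1 in Ctdspl in replicate 1 and 3.13 times in replicate 2. It held 80.7% of their joint 135 counts in replicate 1 (95% exact interval 73.1 to 87.0) and 75.8% of 128 in replicate 2 (67.4 to 82.9), and the intervals overlap. Counted reads were taken to map to 1 place, whereas an exact read within the common run fits both loci and one of a 3p strand fits 1. The deposited counts do not separate the arms, so how the shared 5p strand divides between Ctdsp2 and Ctdspl cannot be read from them.

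The summed share of the 3 genes was 2.38% in replicate 1 (95% exact interval 2.36 to 2.40) and 2.24% in replicate 2 (2.22 to 2.25), or 2.31% ± 0.10 (SD, n = 2). Nearly all of it was Mir26b, with 2.30% ± 0.10. The family's counts are a lower limit for the same reason as those of miR-26a. Its share is not, since the reads left out are missing from the denominator too. With reads mapped to several places added to the denominator alone, the mean share was 1.29%.

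Mir26b lay close to its nearest neighbours in the order of levels. The means of Mir30e in Nfyc (23936 ± 50 CPM), Mir99b (22564 ± 1380 CPM) and Mir93 in the replication gene Mcm7 (22373 ± 266 CPM) differed from that of Mir26b by less than its SD between libraries. Within each library, Mir30e was above Mir26b, with 23972 and 23901 CPM. Mir99b (23539 and 21588 CPM) and Mir93 (22561 and 22185 CPM) were below Mir26b in both. Mir99a, at rank 6 and like the next gene chosen by its place in that order, was above Mir26b in both libraries, with 31196 and 26882 CPM. Mir92b, at rank 11, was below it in both, with 19407 and 17048 CPM. By the distance of log2(CPM + 1) over the 2 libraries, the profiles most like that of Mir26b were those of Mir99b (0.05), Mir93 (0.08) and Mir30e (0.10).

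For Mir26a-2 the nearest profiles were Mir8112 (distance 0.06), Mir1968 (0.11) and Mir1197 (0.11), all between 26.3 and 32.6 CPM in single libraries. For Mir26a-1 they were Mir3070a, with identical counts of 26 and 31, Mir378d (0.04) and the hairpin gene Gm23134 (0.18). With 2 libraries this likeness is hardly more than a like level.

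The Mir26b level differed slightly between the pools. It was 1.04-fold higher in replicate 1 (log2 ratio 0.06, exact 95% interval 0.05 to 0.07), and the exact binomial test of its counts called it different (adjusted p = 7.7e-16, over 401 genes whose counts averaged at least 10). That test compares these libraries and not conditions, and it called 43.4% of all genes tested, 79 higher and 95 lower in replicate 1. The balance of these calls turned with the scaling, with 93 higher and 84 lower when scaled to total counts and 72 against 103 with TMM factors from all genes. The Mir26b difference was small beside those of other abundant genes: of the 170 genes that averaged at least 1000 counts, 32 had a ratio smaller in size, and the median size among them was 0.15 on the log2 scale. The ratio depended on the scaling, with 0.09 when scaled to total counts and 0.04 with TMM factors from all genes.

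Neither miR-26a locus passed the test. For Mir26a-2 the log2 ratio was 0.27 (exact 95% interval -0.14 to 0.68, adjusted p = 0.32, exact binomial test) and for Mir26a-1 it was -0.15 (-0.96 to 0.65, adjusted p = 0.92, exact binomial test). At these depths the intervals allow a difference of up to 1.60-fold for Mir26a-2 and, for Mir26a-1, from 0.514-fold to 1.57-fold. So 1 of 3 members was called, beside 43.4% of all genes. Calls were more frequent among genes with many counts: 137 of the 170 genes that averaged at least 1000 counts were called. Mir26b is among these 170 genes and the miR-26a loci are not.

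**Figure D4:**
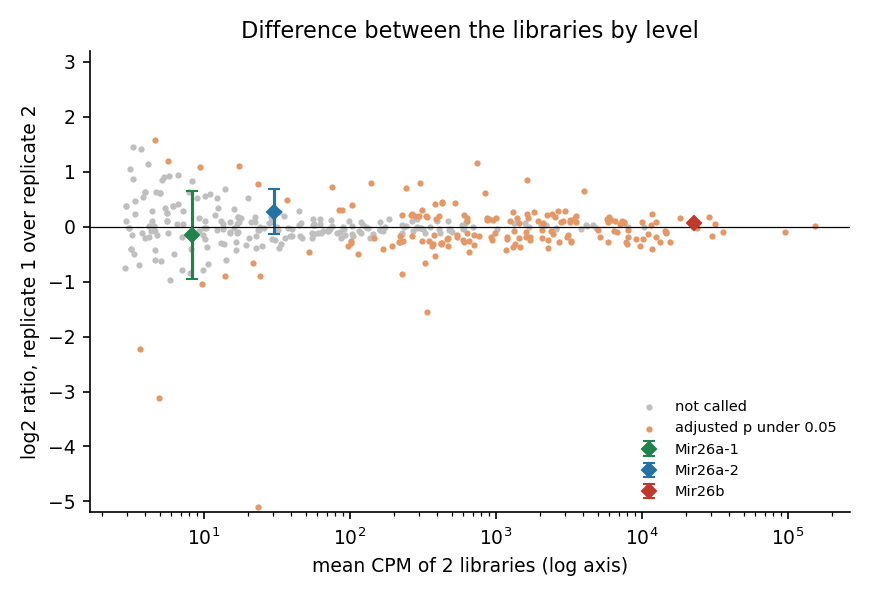
Log2 ratio of replicate 1 over replicate 2 against mean CPM (log axis) for 401 genes, with genes called by the exact binomial test in orange and the miR-26 genes as diamonds with exact 95% intervals. Mir26b lies at 0.06 with an interval smaller than its symbol, and the intervals of Mir26a-2 and Mir26a-1 cross 0.

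The miR-26a loci were set beside other genes whose mature strand is also made elsewhere. Of the counted genes, 858 matched a RefSeq hairpin with a mature sequence. In 49 of them one mature strand was held by another hairpin and the other was not, as in Mir26a-1 and Mir26a-2. The median level of these 49 genes was 34.1 CPM. Of them, 26 lay above Mir26a-2 and 31 above Mir26a-1, up to 10379 CPM for Mir92-1, a gene of the miR-17-92 cluster chosen after its values were seen. Their summed share was 2.52% of the counts of replicate 1 and 2.35% of those of replicate 2. The 775 genes with no shared mature strand held 90.3% and 90.9%, but their median level was lower than that of the 49, at 0.88 CPM. A smaller part of them reached a mean count of 10: 294 did, against 36 of the 49. Any count at all was found for 526 of the 775 and 44 of the 49. In the remaining 34 genes all mature strands were shared. Their median was 0 CPM, and 11 of them had a count. The RefSeq table is not complete, so a strand called unique may have a copy outside it.

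**Figure D5:**
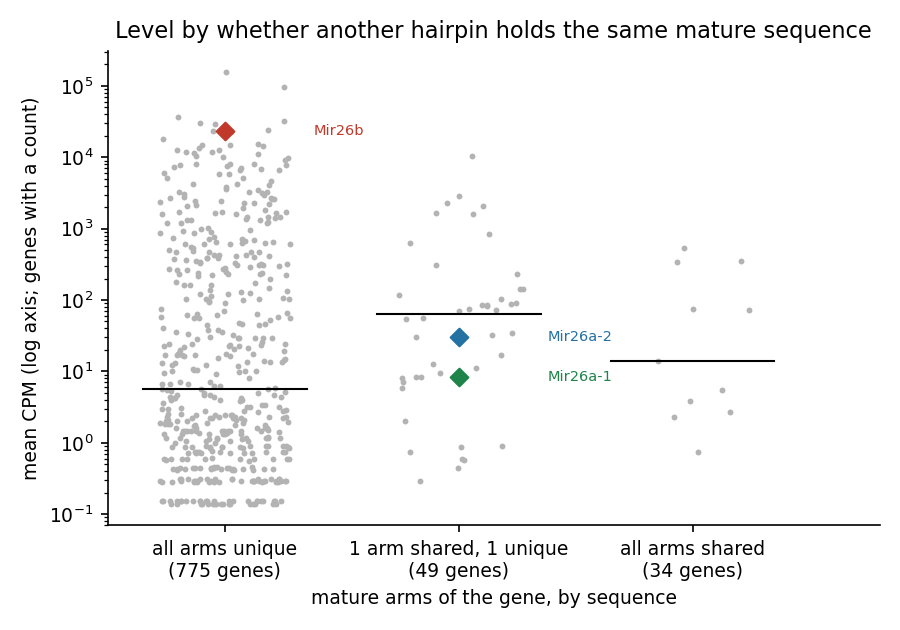
Mean CPM (log axis) of genes with at least one count, grouped by whether another hairpin in the RefSeq table holds the same mature sequence, with the median of the plotted genes as a line and the miR-26 genes as diamonds. Mir26b is near the top of the genes with unique arms, and Mir26a-2 (30.3 CPM) and Mir26a-1 (8.33 CPM) lie below the median of 63.8 CPM among the 44 plotted genes with one shared arm.

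In 3 listed families with both kinds of locus, the loci with their own sequence had more counts than the loci that share one, but this did not hold in every family. In the miR-7 family, chosen after its values were seen, Mir7-1 shares a strand with Mir7-2 and had 699 and 903 counts (234 ± 27 CPM, SD, n = 2), more than Mir7b, whose strands are unique, with 521 and 581 counts (161 ± 1.8 CPM). In the family of miR-103 and its relative Mir107, made in introns of pantothenate kinase genes, Mir107 had 1492 and 1305 CPM in replicates 1 and 2. Mir103-2 had 139 and 149 CPM and Mir103-1 9.83 and 6.15 CPM, so that all 3 levels stood apart. In the miR-30 family Mir30e and Mir30a (12564 ± 665 CPM) had unique strands, and Mir30c-1 (103 ± 12 CPM) and Mir30c-2 (34.1 ± 4.8 CPM, SD, n = 2) shared one; Mir30b and Mir30d were not matched to a hairpin. In the miR-29 family Mir29c had 129 ± 1.5 CPM and Mir29a 37.5 ± 9.5 CPM (SD, n = 2), while Mir29b-2 and Mir29b-1 had at most 8 counts in a library. The pair Mir128-1 and Mir128-2, a neuronal miRNA with one shared strand and no unique relative in the list, had 84.2 ± 13.8 and 9.39 ± 4.97 CPM (SD, n = 2). By the exact binomial test 1 of 3 genes of the miR-103 family, 4 of 6 of the miR-30 family, 1 of 2 tested of the miR-29 family and 2 of 2 of the miR-128 pair were called between the libraries, beside 43.4% of all genes. Among genes that averaged at least 1000 counts, as Mir107, Mir30e, Mir30a and Mir30d did, 137 of 170 were called. What part of these gaps is a difference in level was not tested.

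The neuronal miRNAs linked to REST, the pathway of the host genes, had few counts. REST represses miR-124, miR-9 and miR-132, and miR-124 and miR-9 in turn act on Ctdsp1 and on REST. Of 8 genes listed, 7 were counted, and they held 0.0476% ± 0.0055 of the gene counts (SD, n = 2) against 2.31% ± 0.10 for the miR-26 genes. Mir9-3 had 1182 and 1125 counts and Mir132 390 and 319, while Mir124a-1, Mir124a-2 and Mir124a-3 had 3 to 18 counts in a library. Mir9-1 was not analysed here. Both strands of Mir9-2 and Mir9-3 are shared between loci, so their counts too are lower limits. The same holds for the counts of the 3 genes that make miR-124. Of 6 genes tested, 2 were called, Mir9-3 (log2 ratio 0.18) and Mir132 (0.39), both higher in replicate 1, and none was called lower, beside 43.4% of all genes. The share called was thus no higher than the background. The median log2 ratio of the 6 genes was 0.06, against -0.03 for all 401 genes.

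Replicate 1 had 3256070 gene counts and replicate 2 had 3574530. Forebrain progenitor markers held 1.87% ± 0.18 of them, almost all Mir92b, and neuronal markers 0.0534% ± 0.0119. The counts behind both shares are lower limits. Mir9-2, Mir9-3, Mir135a-2, Mir128-1 and Mir128-2 have strands held by other hairpins, and miR-124 is made from several genes. The shares themselves are not lower limits, since the reads left out are missing from the denominator too. Among markers of other cells, those of vessels held 3.41% ± 0.17, mostly Mir126a (30480 ± 2051 CPM), of red blood cells 0.0711% ± 0.0070, of leukocytes 0.0683% ± 0.0058, of hindbrain and trunk 0.0277% ± 0.0046, of liver 0.0145% ± 0.00027 and of muscle and heart 0.00409% ± 0.00017 (SD, n = 2). Mir9-1, Mir126b and Mir486a of these lists are not in the shares, and Mir486, with 105 and 114 counts, was not listed. The counts of the liver and the hindbrain and trunk markers are lower limits too, since the Mir194 and Mir196a genes share a strand between loci. Mir1a-1 and Mir133a-2 of the muscle list had 0 counts, but miR-1a and miR-133a are made from more than one locus, so this sets no upper limit on their level. Between the libraries, 3 of 5 tested neuronal markers (median log2 ratio 0.31) and 3 of 4 progenitor markers (0.17) were called higher in replicate 1. Of 5 hindbrain and trunk markers tested (median -0.46), 2 were called lower. Of 3 vessel markers, 1 was called higher and 1 lower. Of 2 tested in each list, 1 red blood cell marker was called lower and 1 leukocyte marker higher. No liver or muscle and heart marker was called. Of all genes tested, 43.4% were called, and lists this short cannot be set apart from that share. The lists overlap, since the progenitor list holds Mir9-3 and the neuronal list the miR-124 genes. Their part in the ratios of the REST-linked and miR-26 genes was not tested. Vessel markers held more of the counts than the miR-26 genes did, and which cells held miR-26b was not tested.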

How the data were processed

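The deposited files hold raw read counts per gene for each library, in 3 columns without a header. They were read as either strand, gene strand and opposite strand, from the values: in all 1973 genes the first is the sum of the others. Per the authors' file notes they were made on mm10 with annotation M4; how reads were trimmed, aligned and counted is not given in the sources used here. The column with nearly all counts, 96.7% in replicate 1 and 96.4% in replicate 2, was taken as the gene strand and used. Unmapped reads (24.6% and 25.4% of all reads), reads mapped to several places (30.1% and 28.8%) and reads outside genes (7.28% and 8.82%) stayed out of library sizes.

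GENCODE M21 held 1894 of 1973 identifiers. RefSeq hairpins were matched by an overlap of at least 40 bases on the same strand, for 869 genes. CPM used the total of the gene counts and is not divided by length. Library ratios used TMM factors (edgeR 4.0.16, R 4.3.3) from genes that averaged at least 10 counts, a pseudocount of 0.5 counts, an exact two-sided binomial test and Benjamini-Hochberg adjustment across all genes tested, at 0.05. The test was also run on simulated counts, drawn with counting error only and without TMM factors. That run cannot show how the test behaves where libraries differ beyond counting error. The labels number the libraries as biological replicates, but with 1 group p-values and exact (Clopper-Pearson, 95%) intervals cover counting error only, and reads copied by PCR are not independent. DESeq2 1.42.0, Python 3.11.15, pandas 2.3.3, scipy 1.17.1 and matplotlib 3.10.9 were also used.

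Named are the 3 members, the 3 nearest profiles of each, the listed families and the highest genes of each list; others are marked. Members and lists were chosen with earlier results of these data known.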

Additional observations from a re-analysis of the deposited data

How the results depend on the processing

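Over 8 settings of scaling, filter, pseudocount and strand, among them TMM factors from all genes, an alternative chosen after seeing the data, Mir26b stayed called, with log2 ratios from 0.04 to 0.09 and adjusted p-values up to 1.6e-06 (exact binomial test). Mir26a-2 (0.25 to 0.30) and Mir26a-1 (-0.17 to -0.11) kept their sign and did not pass; at a minimum mean count of 100 Mir26a-1 was not tested. The count of genes called ran from 163 to 182. The share called depended on the filter, with 25.4% of 668 genes tested at a minimum mean count of 1 and 60.1% of 271 at 100. With all reads as denominator the levels were 8648 CPM for Mir26b, 11.4 for Mir26a-2 and 3.12 for Mir26a-1, and the family share was 0.866%. With reads mapped to several places added to the denominator they were 12911, 17.0 and 4.67 CPM and 1.29%. Without Mir335 in the denominator they were 27265, 35.9 and 9.85 CPM and 2.73%. These shifts follow from the denominators. Per base of hairpin the log2 ratio of Mir26b over the miR-26a loci was 10.25, since the lengths of both loci are summed. Either-strand counts moved no level, share or log2 ratio of Mir26b over the miR-26a loci beyond the SD, nor did the other pseudocount move that ratio. With 2 libraries, a single library cannot lie beyond the SD from their mean, so leaving one out is no test of stability. Library ratios without either replicate could not be computed. No paired analysis was possible because there is 1 group. Depth limits the miR-26a loci, with 26 to 109 counts in a library.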
